A study of Mus musculus with 10 samples.

Results

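The genes described are 10 that macrophages use to find and take up dead cells: the receptor tyrosine kinases Mertk, Axl and Tyro3, their ligands Gas6 and Pros1, the bridging protein Mfge8, the receptors Timd4, Stab1 and Lrp1, and the engulfment adaptor Elmo1. They were chosen by symbol, and each was found as 1 row among the 57010 genes of the table. RNA was sequenced from primary bone marrow-derived macrophages of 2 genotypes, wild type (WT) and WASp knockout (WKO); WASp, encoded by Was, promotes actin nucleation in blood cells. In all 4 groups femoral marrow had been differentiated over 7 days in recombinant macrophage colony-stimulating factor (M-CSF, 20 ng/mL), and the confined groups then spent 1 h at a height of 3 µm under silicone micropillars. The groups were WT unconfined (2 libraries, numbered 1 and 3), WKO unconfined (2 libraries, numbered 1 and 3), WT confined (3 libraries, numbered 2, 3 and 6) and WKO confined (3 libraries, numbered 1, 2 and 5). The labels give no age or sex, do not describe the WASp allele further, and do not say whether libraries of a group came from separate mice or cultures, so p-values measure the spread between these libraries only, which may be technical.

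Uptake of dying cells, or efferocytosis, starts when a phagocyte binds phosphatidylserine exposed on the dying cell. Mertk, Axl and Tyro3 form the TAM family, which binds phosphatidylserine through Gas6 and protein S, the product of Pros1. Timd4 and Stab1 bind phosphatidylserine themselves, Mfge8 links it to integrins, Lrp1 is a large endocytic receptor, and Elmo1 works with Dock180 upstream of Rac and actin assembly. Mertk is a characteristic receptor of resident and M-CSF-grown macrophages, while Axl is known to be raised by inflammatory stimuli and is also made by fibroblasts and other mesenchymal cells.

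Each library held between 13295701 and 19329908 reads. Was itself lay between 1308 and 1649 normalized read counts in the 5 WT libraries and between 96.9 and 154 in the 5 WKO libraries, so every library matched its genotype label. A normalized read count is the number of reads of a gene divided by 1 size factor per library. All 10 macrophage markers checked (Adgre1, Csf1r, Cd68 and others) were above the detection floor of 3 reads in all libraries. The 16 stromal marker genes, such as Col1a1, summed to between 270 and 2166 normalized read counts in WT libraries and to between 1080 and 12078 in WKO libraries. WKO confined library 5 stood apart, with the highest level of 15 of those 16 genes. The 12 neutrophil and progenitor markers, such as Mpo, summed to between 2584 and 10967 in WT and between 7036 and 30307 in WKO libraries. B-lineage sums (2389 to 2879) overlapped between genotypes, and Blnk alone (2198 to 2742) made up most of them. Dendritic cell markers summed to between 21.7 and 71.0 in WT and between 70.6 and 174 in WKO libraries. Vwf held most of the endothelial sum (1892 to 3886).

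Per kilobase of exon, the 10 genes spanned a wide range in WT unconfined cells. Stab1 (3228 ± 997, SD, n = 2), Lrp1 (2766 ± 474) and Gas6 (2675 ± 180) led, and these 3 did not differ beyond their spread. Mfge8 followed at 1482 ± 102 normalized read counts per kilobase, then Mertk at 412 ± 34.7 and Axl at 277 ± 73.0. Pros1 (206 ± 23.1) was close to Axl within its spread, and Elmo1 stood at 139 ± 6.73. Tyro3 (4.23 ± 2.04) and Timd4 (2.65 ± 3.13) were near the floor, so that of the 3 TAM receptors Mertk and Axl made up nearly all of the RNA measured. In WKO unconfined cells Mertk reached 829 ± 45.0 and Axl 495 ± 59.7 per kilobase. In confined cells Axl stood at 122 ± 6.16 (SD, n = 3) in WT, below Mertk (390 ± 53.8), Pros1 (218 ± 12.8) and Elmo1 (163 ± 9.70).

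Mertk (ENSMUSG00000014361) lies on chromosome 2 from 128698956 to 128802894 on the plus strand (GRCm38, GENCODE M21), and no other annotated gene overlaps its exons. In WT cells it was read at 1893 and 1680 normalized counts in the unconfined libraries and at 1896, 1744 and 1438 in the confined libraries. In WKO cells it was read at 3455 and 3731 in the unconfined and at 3386, 3333 and 3948 in the confined libraries. Every WKO library was above every WT library, with no overlap and a wide gap between 1896 and 3333. Group means were 1787 ± 151 (SD, n = 2) in WT unconfined, 3593 ± 195 (n = 2) in WKO unconfined, 1693 ± 233 (n = 3) in WT confined and 3556 ± 341 (n = 3) in WKO confined cells. The mean in WKO was thus 2.01 times that in WT without confinement and 2.10 times with it.

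The unconfined difference of Mertk, 1.01 on the log2(value + 1) scale (SE 0.15), was among the results known when these genes were chosen and is given as a description without a test. In confined cells, which are other libraries but whose difference was known too from earlier results, Mertk differed by 1.08 (SE 0.12, 95% interval 0.81 to 1.34, adjusted p = 0.00175 with limma over 12455 genes), higher in all 3 WKO than in all 3 WT libraries. Leaving out any 1 library kept that difference between 0.96 and 1.16. No confinement difference of Mertk passed the test. After confinement the log2 difference was -0.08 in WT (95% interval -0.38 to 0.21, limma adjusted p = 0.857) and -0.02 in WKO cells (95% interval -0.31 to 0.28, limma adjusted p = 0.971). The intervals leave room for a change of up to about 0.38 on the log2 scale. The interaction, which is how far confinement moved Mertk in WKO beyond WT cells, was 0.07 (95% interval -0.35 to 0.49, limma adjusted p = 0.999).

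Some markers of other cells differed between genotypes too. Without confinement, 12 of 13 tested stromal markers and 9 of 12 neutrophil and progenitor markers were higher in both WKO than in both WT libraries, as were 22.2% of all tested genes. Of 5 B-lineage and 4 endothelial markers 0 were higher in that way. In confined cells 7 of the 13 stromal markers passed the test as higher in WKO, against 1.38% of all tested genes. Of the 12 neutrophil and progenitor markers 0 passed there, and 2 were higher with no overlap, against 21.1% of all tested genes in either direction. The B-lineage gene Cd79b passed there too, at 16.9 to 27.9 in WT and 49.1 to 71.4 in WKO confined libraries (1.47, limma adjusted p = 0.0346). So did the dendritic cell and progenitor gene Flt3, at 1.17 to 3.21, near the floor, in WT and 15.6 to 28.4 in WKO confined libraries (limma adjusted p = 0.0346). WKO confined library 2, with Mertk at 3333, had a stromal sum of 1080, inside the WT range, and a neutrophil and progenitor sum of 28307, above it. WKO confined library 5, with Mertk at 3948, had a neutrophil and progenitor sum of 7036, inside the WT range, and a stromal sum of 12078, above it. No WKO library lay inside the WT range of both sums. Macrophage markers summed to between 192220 and 220388 in WT and to between 251654 and 326091 in WKO libraries. Lyz2 alone made up most of these sums, at 100507 to 132963 in WT and 157886 to 200203 in WKO libraries. Of the 10 markers, 2 were higher in every WKO than in every WT library, against 3.38% of all tested genes. Without confinement 4 were higher and 3 lower with no overlap between genotypes, against 44.9% of all tested genes in either direction. In confined cells 4 were higher and 0 lower, against 21.1%. The part of cell composition in the Mertk difference was not tested. In bulk samples, fewer cells of a type and less RNA per cell cannot be told apart.

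Axl (ENSMUSG00000002602), the TAM receptor known for its response to inflammatory signals, lies on chromosome 7 from 25757273 to 25788705 on the minus strand (GRCm38), with no other gene over its exons. WT unconfined libraries had 1136 and 1655 normalized read counts, and WT confined libraries had 637, 581 and 631. WKO unconfined libraries had 2277 and 2702, and WKO confined libraries had 1940, 1875 and 1525. The 3 WT confined libraries were the lowest of all and close together, the 2 WKO unconfined libraries were the highest, and the other 5 libraries overlapped between genotypes. Group means were 1396 ± 367 (SD, n = 2) in WT unconfined, 2489 ± 300 (n = 2) in WKO unconfined, 616 ± 31.0 (n = 3) in WT confined and 1780 ± 223 (n = 3) in WKO confined cells.

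In WT cells Axl fell by 1.15 on the log2 scale after confinement (SE 0.17, limma adjusted p = 0.00597), to 0.442 times the unconfined mean, and it was lower in all 3 confined than in both unconfined libraries. Without WT unconfined library 3 the call was lost, at -0.88 with a limma adjusted p of 0.0799, and without the mean-variance trend of the fit the limma adjusted p was 0.0685. In WKO cells the difference after confinement was -0.49 (95% interval -0.85 to -0.12, limma adjusted p = 0.209), with all 3 confined libraries below both unconfined ones and a ratio of means of 0.715. The difference between those effects was 0.67 (95% interval 0.15 to 1.19, limma unadjusted p = 0.0158), and it did not pass adjustment over all genes (limma adjusted p = 0.999).

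The genotype difference of Axl in confined cells was 1.52 on the log2 scale (SE 0.15, 95% interval 1.19 to 1.85, limma adjusted p = 0.000742), a ratio of means of 2.89, and it was higher in 3 of 3 WKO libraries. In unconfined cells the ratio of means was 1.78 and the log2 difference 0.85 (SE 0.18), given without a test. After confinement of WT cells 7 of 13 tested stromal markers and 7 of 12 neutrophil and progenitor markers were lower with no overlap, as Axl was. They were lower in all WT confined than in both WT unconfined libraries, as were 17.7% of all tested genes. Of the 13 and of the 12, 0 passed the test there, where 0.265% of all tested genes passed as lower. After confinement of WKO cells 0 of the 13 and 5 of the 12 were lower with no overlap. There 28.3% of all tested genes had no overlap in either direction. The stromal sum was 1103 and 2166 in WT unconfined and 270, 317 and 952 in WT confined libraries. Neutrophil and progenitor sums were 7028 and 10967 in WT unconfined and 6385, 7994 and 2584 in WT confined libraries. Among WKO confined libraries, the one with the highest stromal sum (library 5, 12078) had the lowest Axl (1525). The part of stromal or other cells in the Axl values was not tested.

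The promoters of these 2 receptors are shown because Mertk and Axl are the genes that passed a test between the groups. Each sequence is the 250 bases before the RefSeq transcription start on GRCm38.p6, read in the direction of the gene: chr2:128698665-128698914 on the plus strand for Mertk and chr7:25788734-25788983 on the minus strand for Axl. Capitals mark the GC box (GGGCGG or its complement CCGCCC, bound by Sp-family factors) and the core of the site of PU.1, the myeloid lineage factor (GAGGAA or its complement TTCCTC).
Mertk: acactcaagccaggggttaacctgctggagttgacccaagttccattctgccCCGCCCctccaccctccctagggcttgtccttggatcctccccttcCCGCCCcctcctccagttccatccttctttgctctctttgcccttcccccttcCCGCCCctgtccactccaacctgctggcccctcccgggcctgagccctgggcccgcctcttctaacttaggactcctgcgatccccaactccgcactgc
Axl: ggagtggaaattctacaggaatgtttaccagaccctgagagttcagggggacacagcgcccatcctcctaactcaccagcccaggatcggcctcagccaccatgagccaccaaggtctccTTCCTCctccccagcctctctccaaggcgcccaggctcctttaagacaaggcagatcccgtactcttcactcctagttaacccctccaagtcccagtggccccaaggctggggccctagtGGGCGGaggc
Mertk held 3 GC boxes and Axl held 1, against 32.7% of 32851 promoter windows of that length with at least 1. Members that passed no test between confined groups held them too, with 5 for Pros1, 4 each for Gas6 and Mfge8, 3 for Tyro3 and 1 for Lrp1. Elmo1 held 3 in 1 window and 0 in the other, and Timd4 and Stab1 held 0. Axl held 1 PU.1 core and Mertk held 0, against 23.3% of windows. The AP-1 motif TGANTCA (6.75% of windows), the hypoxia element core ACGTG (16.6%), the E-box CACGTG (6.02%, itself holding the hypoxia core) and the LXR direct repeat with a spacer of 4 bases (0.0152%), searched on both strands, had 0 matches in either window. GC content was 63.6% for Mertk and 60.0% for Axl, with a median of 52.4% over all windows. A match is a run of letters and not a shown binding site, and no match concerns this window only.

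Tyro3 (ENSMUSG00000027298, chromosome 2 from 119797733 to 119818104, plus strand), the TAM receptor best known from the nervous system, was barely detected in these macrophages. It had 35.1 and 17.3 normalized read counts in WT unconfined, 11.8 and 8.26 in WKO unconfined, 18.2, 19.9 and 11.2 in WT confined, and 18.8, 4.21 and 5.99 in WKO confined libraries. These values rest on 4 to 37 reads. Both WKO unconfined libraries were below both WT unconfined libraries, while the confined groups overlapped. In confined cells the log2 difference was -0.92 for WKO against WT (95% interval -2.27 to 0.42, limma adjusted p = 0.501), and after confinement it was -0.59 in WT (limma adjusted p = 0.789) and -0.28 in WKO cells (limma adjusted p = 0.893). The 95% interval in confined cells leaves room for a 2-fold lower level of Tyro3 in WKO.

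Both ligands of the TAM receptors were read at higher levels in WKO than in WT cells within each condition, without passing the test in confined cells. Gas6 (ENSMUSG00000031451, chromosome 8 from 13465374 to 13494490, minus strand), the ligand of all TAM receptors, was read at 7140 and 6489 in WT unconfined, 9102 and 9661 in WKO unconfined, 8277, 7927 and 8345 in WT confined, and 10249, 8962 and 10158 in WKO confined libraries. All 5 WKO libraries were above all 5 WT libraries. The log2 difference of Gas6 between genotypes was 0.46 (SE 0.11) in unconfined cells, as a description, and 0.26 in confined cells (95% interval 0.05 to 0.46, limma adjusted p = 0.181). The 3 WT confined libraries were above both WT unconfined libraries (0.27, limma adjusted p = 0.316), and WKO libraries overlapped between conditions (0.06, limma adjusted p = 0.839). An exon of Gas6 overlaps Tmem255b on the opposite strand, and the use of strand in counting is not given in the sources used here, so its counts are uncertain.

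Pros1 (ENSMUSG00000022912, chromosome 16 from 62854307 to 62929346, plus strand), which encodes protein S, was read at 776 and 910 in WT unconfined and 1052 and 938 in WKO unconfined libraries. It stood at 902, 836 and 940 in WT confined and 1129, 1221 and 1105 in WKO confined libraries. WKO libraries were above WT libraries within each condition, with a narrow gap between 910 and 938 in unconfined cells. The confined genotype difference was 0.37 on the log2 scale (95% interval 0.13 to 0.61, limma adjusted p = 0.108). Confinement gave a log2 difference of 0.09 in WT (limma adjusted p = 0.839) and of 0.21 in WKO cells (limma adjusted p = 0.473), where all 3 confined libraries were above both unconfined ones.

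Mfge8 (ENSMUSG00000030605, chromosome 7 from 79133768 to 79149060, minus strand), the secreted bridge between phosphatidylserine and integrins, lay on the other side. It was read at 6619 and 7295 in WT unconfined and 4287 and 4418 in WKO unconfined libraries, a log2 difference of -0.68 (SE 0.31) given without a test. In confined cells it was read at 7065, 7328 and 3121 in WT and at 4936, 3969 and 4024 in WKO libraries. In total 4 of the 5 WT libraries were above all WKO libraries, and the fifth, WT confined library 6, was below all of them. The confined genotype difference was -0.35 with a limma adjusted p of 0.554. Without WT confined library 6 it was -0.75 with a limma adjusted p of 0.0240, so the call turns on that library. Mfge8 did not pass the test after confinement, at -0.35 in WT (limma adjusted p = 0.679) and -0.02 in WKO cells (limma adjusted p = 0.985).

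**Figure D1:**
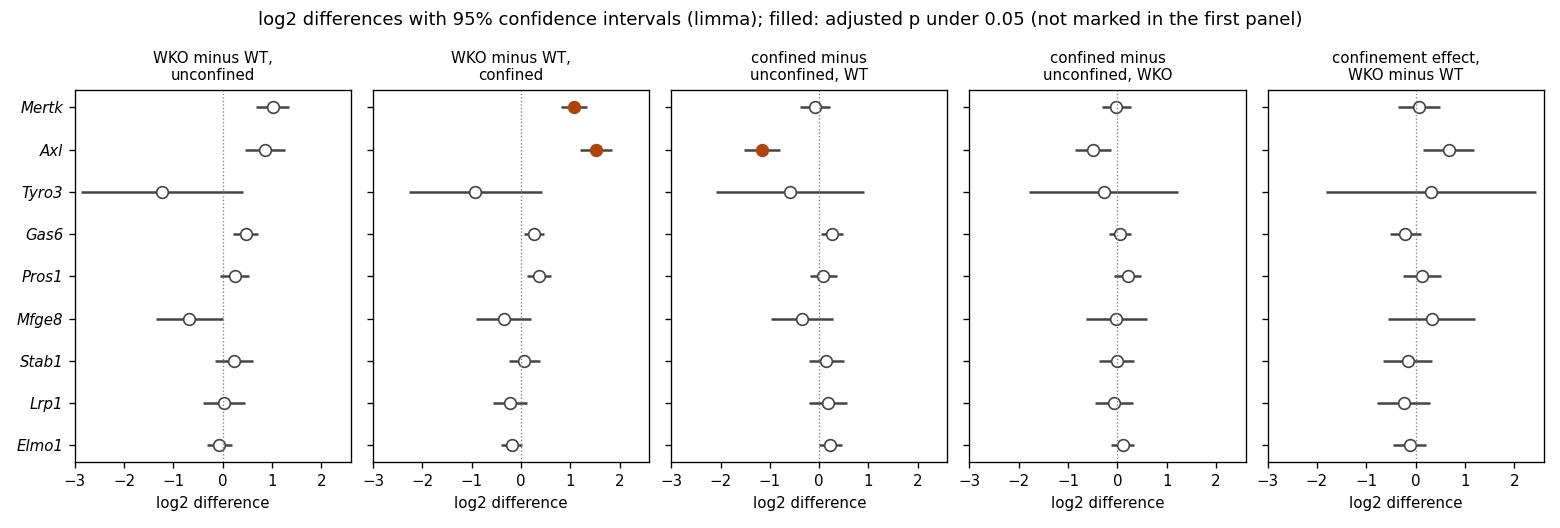
Log2 difference with its 95% interval for the 9 tested genes in each of 5 contrasts, from limma. Filled points passed an adjusted p under 0.05, and the first panel, in view when the genes were chosen, is not marked. Other results of these data were known then too, the confined genotype difference of Mertk among them, so filled points are no independent test. In confined cells Axl (1.52) and Mertk (1.08) lie apart from the other 7 genes, and in WT cells Axl (-1.15) lies apart after confinement.

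Timd4 (ENSMUSG00000055546, chromosome 11 from 46810800 to 46844332, plus strand), the phosphatidylserine receptor of peritoneal and other resident macrophages, was close to absent. Its values were 0.950 and 10.6 in WT unconfined, 18.7 and 4.13 in WKO unconfined, 8.57, 0 and 4.82 in WT confined, and 3.14, 3.16 and 4.79 in WKO confined libraries. The highest value rests on 19 reads, and the 0 in WT confined library 3 allows up to 3.52 normalized read counts. Its mean was below the 10 required for testing, and no comparison of Timd4 was made.

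Stab1 and Lrp1 were the most abundant receptors of the set, and no difference of either passed a test. Stab1 (ENSMUSG00000042286, chromosome 14 from 31139013 to 31168641, minus strand), a scavenger receptor that also binds phosphatidylserine, was read at 40464 and 25960 in WT unconfined, 38530 and 36919 in WKO unconfined, 36862, 36192 and 34396 in WT confined, and 40744, 36357 and 35319 in WKO confined libraries. WT unconfined library 3 was the lowest, and the genotypes overlapped in both conditions. The confined genotype difference of Stab1 was 0.06 (95% interval -0.25 to 0.38, limma adjusted p = 0.884). Its difference after confinement was 0.14 in WT (limma adjusted p = 0.782) and -0.01 in WKO cells (limma adjusted p = 0.985). An exon of Stab1 overlaps Nt5dc2 on the opposite strand, with the same doubt about strand as for Gas6.

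Lrp1 (ENSMUSG00000040249, chromosome 10 from 127538161 to 127621148, minus strand), which pairs with calreticulin on dying cells, was read at 54947 and 43077 in WT unconfined and 50027 and 48686 in WKO unconfined libraries. Confined libraries had 62493, 56251 and 47032 in WT and 51388, 53467 and 37867 in WKO cells. The lowest value was that of WKO confined library 5, and all groups overlapped. The confined genotype difference was -0.22 (95% interval -0.57 to 0.12, limma adjusted p = 0.530). After confinement Lrp1 differed by 0.17 in WT (limma adjusted p = 0.752) and by -0.07 in WKO cells (limma adjusted p = 0.897).

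Elmo1 (ENSMUSG00000041112, chromosome 13 from 20090596 to 20608353, plus strand), the cytoplasmic partner of Dock180 and the member nearest to actin assembly, was read at 1808 and 1688 in WT unconfined and 1707 and 1619 in WKO unconfined libraries. It stood at 1910, 2147 and 2080 in WT confined and 1880, 1813 and 1685 in WKO confined libraries. The 3 WT confined libraries were the highest of the 10. The confined genotype difference was -0.19 (95% interval -0.40 to 0.02, limma adjusted p = 0.349) and the difference after confinement in WT cells was 0.23 (95% interval -0.01 to 0.46, limma adjusted p = 0.433). In WKO cells it was 0.11 (limma adjusted p = 0.699). An exon of Elmo1 overlaps Gm32036 on the opposite strand.

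Counted over the 9 tested genes, 1 passed the test between genotypes in unconfined cells (Mertk), where 0.145% of all tested genes passed, and nothing is read from that count because the contrast was known when the genes were chosen. In confined cells 2 of 9 passed as higher in WKO (Mertk and Axl), against 2.59% of all genes in either direction and 1.38% as higher; nothing is read from this count either, since the members were chosen with results of these data known. After confinement of WT cells 1 of 9 passed, Axl as lower, against 1.16% in either direction and 0.265% as lower. After confinement of WKO cells 0 of 9 passed with limma, against 1.72%. There 1 gene was under an unadjusted p of 0.05, as were 14.1% of all genes, and edgeR and DESeq2 called 0. For the difference between the confinement effects 0 of 9 passed with limma, edgeR or DESeq2, with 1 gene under an unadjusted p of 0.05. In that comparison 0.0% of all genes passed and 2.07% were under an unadjusted p of 0.05.

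Groups that do not overlap are frequent with so few libraries. In unconfined cells 6 of 9 genes had no overlap between genotypes, against 44.9% of all tested genes, and in confined cells 5 of 9, against 21.1%. After confinement 3 of 9 had no overlap in WT cells, against 35.9%, and 2 of 9 in WKO cells, against 28.3%. Over all 10 libraries, 2 of 9 genes (Mertk and Gas6) were higher in every WKO than in every WT library, against 3.38% of all genes. The genotype and confinement contrasts share libraries, so these counts are not independent of one another. The members were chosen with results of these data known, so nothing is read from these counts beside those shares. The median log2 difference of the 9 genes between genotypes in confined cells was 0.063, beside 0.0036 over all genes, with 5 above and 4 below 0.

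The genes whose profile was most like that of Mertk were found by Pearson's r of log2 values over the 10 libraries, among 10216 genes with a mean of at least 50. They were Ly86 (r = 0.991), which encodes the MD-1 partner of the Toll-like receptor homologue CD180, the Golgi mannosidase gene Man2a2 (0.986), Sec14l1 (0.984), the Wnt co-receptor gene Lrp5 (0.975) and Rxra (0.971), the nuclear receptor partner of LXR and PPAR. These r values were the highest of many, share the same 10 libraries and genotype step, and are a description. Ly86 was read at 850 ± 11.4 (SD, n = 2) in WT unconfined, 1498 ± 128 (n = 2) in WKO unconfined, 816 ± 101 (n = 3) in WT confined and 1602 ± 205 (n = 3) in WKO confined cells. For Ly86 the lowest WKO library, at 1408, was above the highest WT library, at 897. Man2a2, Sec14l1, Lrp5 and Rxra had the same order, with the lowest WKO library above the highest WT library in each. Of the other members with a mean of at least 50, Gas6 came closest to Mertk (r = 0.807, rank 302), followed by Axl (0.794, rank 350) and Pros1 (0.719, rank 607). Stab1 had an r of 0.396, Lrp1 of -0.292, Mfge8 of -0.431 and Elmo1 of -0.634.

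**Figure D2:**
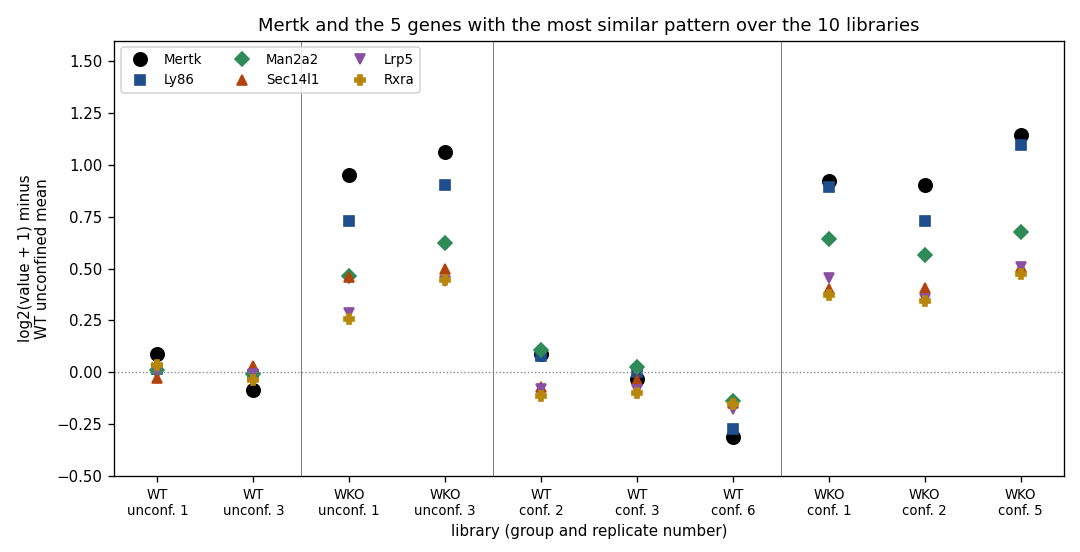
Log2 normalized read count relative to the WT unconfined mean in each of the 10 libraries for Mertk and the 5 genes most like it by Pearson's r. All 6 genes step up from WT to WKO libraries, and the step is largest for Mertk, at 1.01 without and 1.08 with confinement.

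Of 96 other genes of the same process, sorted into 8 roles, 90 were abundant enough to test. They were listed with earlier results of these data known, so nothing is read from how their counts stand beside the shares of all genes. In confined cells 9 of the 90 passed between genotypes, 7 higher and 2 lower in WKO, against 2.59% of all genes (1.38% higher and 1.2% lower). In the other contrasts 0 passed in unconfined cells, 0 after confinement of WT cells, 4 after confinement of WKO cells (all higher, against 1.49% of all genes) and 0 for the difference between confinement effects. DESeq2 called 3, 1 and 0 where limma called 0, and edgeR called 0. At an unadjusted limma p of 0.05, 10, 18 and 5 of the 90 would have passed there, against 9.6%, 12.2% and 2.07% of all genes. The median log2 difference of the 90 between genotypes in confined cells was 0.079, beside 0.0036 over all genes.

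Of the 9 genes that passed between genotypes in confined cells, 4 were among the 10 tested bridging molecules. The 9 calls became 0 without the mean-variance trend and 3 with only the confined groups in the fit, those of C1qa, Anxa1 and Apoe. C1qa, a chain of the complement opsonin C1q, was read at 2169, 2161 and 1629 in WT and 5693, 4402 and 4228 in WKO confined libraries, higher by 1.26 on the log2 scale (SE 0.18, limma adjusted p = 0.00705). Anxa1, the phosphatidylserine-binding annexin, was lower, at 29648, 28683 and 30433 in WT and 20042, 18634 and 17631 in WKO libraries (-0.66, SE 0.11, limma adjusted p = 0.0110). Of 11 tested genes of nuclear receptors and lipid efflux 2 rose. Apoe, which carries lipid away from loaded macrophages, was read at 31324, 31864 and 23678 in WT and 71229, 61847 and 72734 in WKO libraries (1.25, SE 0.21, limma adjusted p = 0.0119). Rxra differed by 0.52 (SE 0.09, limma adjusted p = 0.0170), between 1452 and 1505 in WT and between 2047 and 2243 in WKO libraries.

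Among 17 tested other receptors 1 passed as higher, the scavenger receptor Stab2 (0.78, limma adjusted p = 0.0460), and 1 as lower. Itgb3, an integrin chain of a receptor for Mfge8, was the lower one, at 378 ± 52.4 (SD, n = 3) in WKO against 663 ± 83.1 (n = 3) in WT confined cells (-0.81, SE 0.15, limma adjusted p = 0.0160). The more abundant integrin chain gene Itgb5 went the other way without passing. It was read at 5986 ± 599 (SD, n = 3) in WKO and 4317 ± 450 (n = 3) in WT confined cells, with no overlap. Of 6 tested do-not-eat-me signals and inhibitory receptors 1 passed. This was Pecam1, an adhesion molecule by which living cells detach from phagocytes, which was higher, at 74.6 ± 6.51 against 21.2 ± 6.67 (1.80, SE 0.34, limma adjusted p = 0.0194), and is also an endothelial marker. The remaining 2 that passed were the C1q chains C1qb and C1qc, both higher. None of 17 engulfment signalling genes, 17 genes of phagosome maturation and digestion, 7 of find-me signal sensing or 5 of receptor shedding passed with limma. Among these 4 roles DESeq2 called 0, 0, 1 and 1 and edgeR called 0, and 3, 1, 2 and 2 were under an unadjusted limma p of 0.05. The count of 9 fell to 1 without WT confined library 2, to 4 without WT confined library 3 and to 4 without WT confined library 6.

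**Figure D3:**
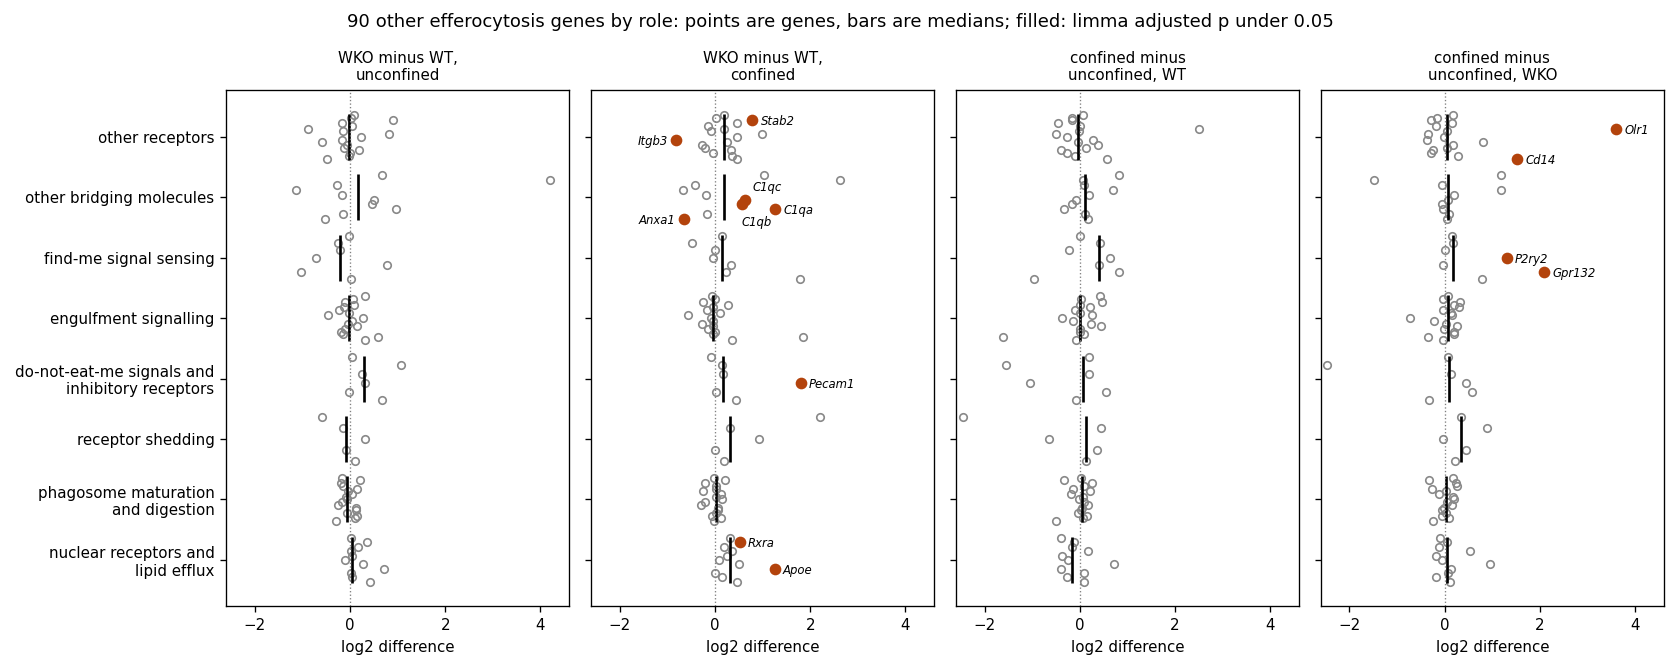
Log2 difference of the 90 other efferocytosis genes in 4 contrasts, 1 point per gene, by role; bars are medians and filled points passed a limma adjusted p under 0.05. Filled points are seen in confined cells between genotypes (9 genes, C1qa at 1.26 and Anxa1 at -0.66 among them) and after confinement of WKO cells (4 genes).

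After confinement of WKO cells the 4 genes that rose were sensors and scavenger receptors. Gpr132, a receptor linked to lysophospholipid signals, was read at 50.3 and 76.4 in unconfined and 266, 168 and 429 in confined WKO libraries (2.09, SE 0.33, limma adjusted p = 0.00785). P2ry2, the receptor for nucleotides released by dying cells, was read at 283 and 262 against 526, 543 and 1069 (1.30, SE 0.25, limma adjusted p = 0.0257). Cd14, a co-receptor of bacterial and apoptotic cell ligands, was read at 2885 and 3189 against 9372, 4938 and 14038 (1.51, SE 0.31, limma adjusted p = 0.0324). Olr1, a scavenger receptor for oxidised lipoprotein, was read at 14.8 and 24.8 against 134, 143 and 736 (3.59, SE 0.74, limma adjusted p = 0.0328). For all 4 genes the highest value was that of WKO confined library 5, which also had the highest stromal sum, and the lower confined libraries were still above both unconfined ones; the part of stromal cells was not tested. The count of 4 became 0 without the mean-variance trend, with only the WKO groups in the fit or without WKO unconfined library 1, 1 without WKO unconfined library 3, 1 without WT confined library 2 or 3, and 11 without WKO confined library 1.

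In WT cells these 4 genes were also read higher in confined than in unconfined libraries, Gpr132 at 227 ± 17.1 (SD, n = 3) against 127 ± 7.86 (n = 2) and Olr1 at 214 ± 44.1 against 49.8 ± 49.0, without passing the test. The smallest p in WT cells after confinement belonged to Atg16l1, of the autophagy machinery used in LC3-associated phagocytosis (-0.51, limma adjusted p = 0.148), and Timp3, the inhibitor of the sheddase ADAM17 (-2.46, limma adjusted p = 0.162). In unconfined cells they belonged to C1qa (0.97, SE 0.23) and Anxa1 (-0.53, SE 0.13), on the same side as in confined cells but without passing (limma adjusted p = 0.127 and 0.147). For the difference between confinement effects they belonged to Itgb3 (-0.64) and Timp3 (2.80), both with a limma adjusted p of 0.999.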

How the data were processed

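RNA was sequenced in 10 libraries in 4 groups, taken from the genotype and treatment labels. Library input was 5 ng of total RNA, per the labels' protocols. The table the authors deposited gives a signal, the normalized read count, for each gene in each library. FastQC, Trim Galore, STAR and the builds GRCm38 and mm10 are named in the submitters' processing notes; the counting tool, annotation and use of strand are not given in the sources used here. All values above 0 (100% per library, within 0.001 of a read) were whole multiples of 1 read, so the deposited signal equals reads over a library-wide factor, which corrects for depth but not for cell composition, gene length or GC content. A count of 3 reads, taken as the floor, equals a normalized read count of 2.35 to 3.59; floors cover counting error only, since PCR reads without molecular identifiers are not independent molecules.

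Genes were found by symbol. With limma 3.58.1 (R 4.3.3), log2(normalized read count + 1) was modelled with 1 mean per group over all 10 libraries and a mean-variance trend, on 12455 genes with a mean of at least 10; fold changes on this scale understate low genes. In each of 5 contrasts p-values were adjusted by Benjamini-Hochberg over these genes, with a threshold of 0.05. Of the 10 members, Timd4 was below the filter. On the recovered reads edgeR 4.0.16 (quasi-likelihood) called 15, 319, 116, 186 and 0 genes in the 5 contrasts (genotype unconfined, genotype confined, confinement in WT, confinement in WKO, difference of confinement effects), and DESeq2 1.42.0 called 179, 775, 332, 484 and 0. The fit was tested on simulated data. Alternatives were other pseudocounts, filters, scalings and tools, only the groups compared, a replicate block and leaving out each library; array weights were added after seeing the data. Named beside the members were Was, the 5 genes most like Mertk and, from 96 listed genes, up to 6 per contrast with the smallest p among those that passed, or the 2 smallest where fewer than 2 passed. Members, marker lists and gene lists were chosen with earlier results of these data known. Coordinates and exon lengths are from GENCODE M21, which lacks 4981 of the table's 57010 identifiers; promoter windows are from RefSeq (GRCm38.p6), which held 11 for the 10 members.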

Additional observations from a re-analysis of the deposited data

How the results depend on the processing

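Mertk and Axl in confined cells passed between genotypes in 22 of 22 alternatives (limma, edgeR or DESeq2 adjusted p up to 0.0247 and 0.0194). The members were chosen with results of these data known, the confined difference of Mertk among them. Axl after confinement of WT cells passed in 20 of 22, losing the call without the mean-variance trend (adjusted p = 0.0685) and without WT unconfined library 3; in WKO cells it passed with array weights (-0.42, adjusted p = 0.0394), an alternative chosen after seeing the data, and in no other of the 22. Mertk in unconfined cells, at 1.01, is a description, and nothing is read from its call, since that contrast was known when the genes were chosen. The call was lost without the filter, without the trend and without WT confined library 3. Leaving out an unconfined library leaves 1 library in its group, and the difference then lay between 0.92 and 1.09. Mfge8 between genotypes in confined cells passed with the replicate block (-0.69, adjusted p = 0.0198) and without WT confined library 6. The cause of these changes was not tested.

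Members called in unconfined cells between genotypes (1) became 0 without the filter or the trend, 2 with only the groups compared, and 3 with the replicate block, DESeq2 or array weights. Nothing is read from these counts, since that contrast was known when the genes were chosen. In confined cells between genotypes (2) they became 4 with array weights, after confinement of WT cells (1) 0 without the trend, and after confinement of WKO cells (0) 1 with array weights. Other efferocytosis genes called in unconfined cells between genotypes (0) became 2 with only the groups compared and 3 with the replicate block, DESeq2 or array weights. In confined cells between genotypes (9) they became 5 without the filter, 0 without the trend, 3 with only the groups compared and 22 with array weights. After confinement of WT cells (0) they became 1 without the filter or with DESeq2, 6 with only the groups compared, 3 with the replicate block and 4 with array weights. After confinement of WKO cells (4) they became 2 without the filter, 0 without the trend or with only the groups compared, 7 with DESeq2 and 15 with array weights. Over all genes, calls ranged from 4 to 245 (18 as reported), 53 to 1948 (322), 20 to 455 (144), 33 to 1735 (214) and 0 to 0 in the 5 contrasts.

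Signs turned under the replicate block for differences that had not passed: Stab1 in confined cells between genotypes (-0.084); Mertk (0.017), Tyro3 (0.39), Pros1 (-0.014) and Mfge8 (0.14) after confinement of WT cells; Tyro3 (0.18) and Mfge8 (0.12) after confinement of WKO cells; and Mertk (-0.15), Tyro3 (-0.21) and Mfge8 (-0.015) in the difference of confinement effects. With array weights they turned for Gas6 (-0.039) and Lrp1 (0.075) after confinement of WKO cells and for Mertk (-0.023) and Tyro3 (-0.38) in the difference of confinement effects. Same-numbered libraries correlated between -0.110 and 0.0764 in their deviations, so the numbers were not taken to pair the libraries; in the block fit the libraries numbered 5 and 6 add nothing, since no other library shares their number.

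Leaving out 1 library, members called ranged from 0 to 2, 2 to 3, 0 to 1, 0 to 0 and 0 to 0, and other genes called from 0 to 2, 1 to 10, 0 to 4, 0 to 11 and 0 to 0 in the order of contrasts above. Mertk ranged from 0.92 to 1.09, 0.96 to 1.16, -0.17 to 0.028, -0.096 to 0.037 and -0.046 to 0.15. In unconfined cells between genotypes Stab1 ranged from -0.10 to 0.54 and Lrp1 from -0.15 to 0.20. After confinement of WT cells the ranges were -0.18 to 0.46 for Stab1, -0.0016 to 0.35 for Lrp1, -0.029 to 0.20 for Pros1 and -0.57 to 0.050 for Mfge8. After confinement of WKO cells they were -0.85 to 0.11 for Tyro3, -0.074 to 0.029 for Stab1, -0.12 to 0.034 for Mfge8 and -0.16 to 0.087 for Lrp1. For the difference of confinement effects they were -0.26 to 0.81 for Tyro3, -0.48 to 0.16 for Stab1 and -0.072 to 0.54 for Mfge8.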
